A study of Mus musculus with 1183 samples.

Results

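The immediate early genes examined here were Fos, Fosb, Jun, Junb, Jund, Egr1, Atf3, Ier2, Dusp1 and Zfp36. They were taken from the count table by symbol, all 10 were present among its 18072 genes, and each is described across the labelled immune subtypes, the animals, the plates and the single cells. All cells were from mice on postnatal day 7 that had been exposed to hyperoxia, an oxygen level above that of air, and all were taken from the distal lung. There was 1 female with 598 cells and 1 male with 585, named as a separate mouse each, so the animal is the replicate (n = 2), and sex and animal cannot be told apart. No strain, allele or further agent was named in the labels, and cells from mice in normal air were not analysed here, so these levels belong to hyperoxic lungs alone. All but 10 cells had been sorted by CD45, the surface phosphatase carried by leukocytes, and the other 10 lay on plates named for CD31 or mesenchyme. The subtype names may rest on expression in these same cells. With 2 animals, each p-value measures only the spread between those animals, pooled over the subtypes in the fit.

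Immediate early genes are switched on within minutes of a stimulus by factors that are already present in the cell, such as the serum response factor and CREB, and their short-lived transcripts disappear soon after. Fos and Jun proteins pair to form the transcription factor AP-1, Egr1 and Atf3 encode further transcription factors, and Ier2 encodes a small nuclear protein of the early response. Dusp1, a phosphatase that inactivates MAP kinases, and Zfp36, an RNA-binding protein that speeds the decay of AU-rich messages, limit the response. In immune cells the set follows activation through surface receptors, and it also rises when tissue is dissociated into single cells, so it is widely read as a mark of both stimulation and handling.

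Promoter sequence is shown for members whose first 250 upstream bases held a searched motif, because the members moved together in several of the comparisons below. RefSeq promoters of the mouse build GRCm38.p6 were matched by symbol for 8 members, not for Egr1 and Ier2. The motifs, read on both strands, were the CArG box bound by the serum response factor, the cyclic AMP response element TGACGTCA and its part TGACG, which lies inside it, the AP-1 site (TGAGTCA or TGACTCA), and TATAAA. The 150 bases before the start site are printed 5′ to 3′ on the gene's strand, with matches in capitals:
Fos: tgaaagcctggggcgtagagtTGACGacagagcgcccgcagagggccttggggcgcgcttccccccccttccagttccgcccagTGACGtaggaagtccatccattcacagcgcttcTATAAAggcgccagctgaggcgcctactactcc
Fosb: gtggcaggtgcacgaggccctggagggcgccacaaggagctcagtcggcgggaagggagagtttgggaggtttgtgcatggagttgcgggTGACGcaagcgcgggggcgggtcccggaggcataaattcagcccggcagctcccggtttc
Junb: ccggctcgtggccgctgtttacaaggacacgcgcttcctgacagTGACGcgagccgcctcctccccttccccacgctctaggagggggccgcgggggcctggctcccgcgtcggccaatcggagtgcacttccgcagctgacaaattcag
Atf3: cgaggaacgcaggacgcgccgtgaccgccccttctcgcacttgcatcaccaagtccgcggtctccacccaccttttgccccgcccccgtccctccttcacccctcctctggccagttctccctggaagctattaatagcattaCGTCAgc
Dusp1: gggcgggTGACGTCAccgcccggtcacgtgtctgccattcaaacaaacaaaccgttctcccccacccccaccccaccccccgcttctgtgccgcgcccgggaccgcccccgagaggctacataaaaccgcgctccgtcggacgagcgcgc
Zfp36: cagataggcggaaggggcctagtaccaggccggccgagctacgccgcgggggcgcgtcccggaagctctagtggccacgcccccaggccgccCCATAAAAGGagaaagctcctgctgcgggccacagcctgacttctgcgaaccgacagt
The 150 bases of Fos, at chr12:85473740-85473889 (plus strand), held TGACG from positions -129 and -66, counted from the start site, and TATAAA from position -33. Dusp1, at chr17:26508473-26508622 (minus strand), held the whole element TGACGTCA from position -143 and a further TGACG at -191, outside the bases printed. Fosb (chr7:19310046-19310195), Junb (chr8:84978749-84978898) and Atf3 (chr1:191183334-191183483), all on the minus strand, each held TGACG, which in Atf3 lay on the opposite strand as CGTCA. Zfp36 (chr7:28379229-28379378, minus strand) held a CArG box from position -58. Over the 250 bases, TGACG was found in 5 of the 8 members and in 17.8% of 32851 promoters of the mouse. TGACGTCA was found in 1.55% of those promoters, the CArG box in 1.47% and TATAAA in 12.4%. Neither exact string of the AP-1 site was found in these 250 bases of the 8 members, against 4.46% of all promoters. Variants of the motifs and bases further upstream were not searched, so a motif not found here may still be present. These matches describe the letters and show nothing about binding in these cells.

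Reads per cell ran from 16753 to 7560179 with a median of 1100966, and reads were summed per animal and subtype for the levels below. The 15 subtypes in which both animals had 5 cells or more gave 30 summed libraries, and the label Mac I held 1 cell. Levels are in CPM, the gene's reads for every 1000000 reads of its summed library, so a level is a share of a subtype's reads. The chosen markers were highest under their own label for B cells (Cd79a), neutrophils (S100a8), mast cells (Cma1), basophils (Mcpt8), DC III (Ccr7), Mac IV (C1qa) and Mac V (Plac8). In Mac III, Car4, Marco and Ear1 were highest and Siglecf was not, while the markers chosen for mast cell II and Mac II were all higher in another subtype. Of 4 markers for IL cells, Il7r was highest in T cells and Il1rl1 in mast cells, and of those for DC II, Itgax was highest in Mac II. Trac in T cells, Clec10a in DC II, and Ifitm6 and Ly6c2 in Mac V were highest on average but overlapped another subtype. Markers of other tissues were low in most libraries, with medians of 24.9 CPM for epithelium, 5.35 for mesenchyme, 0.910 for endothelium, 0.960 for platelets and 0.244 for red cells. The highest sums were 10792 CPM of epithelial genes in DC I of the male, 8613 CPM of platelet genes in Mac IV of the male, 6102 CPM of red cell genes and 534 CPM of endothelial genes in neutrophils of the male, and 218 CPM of mesenchymal genes in B cells of the male. Platelet genes also summed to 4943 CPM in Mac IV of the female, and Pf4 alone averaged 6652 CPM over the animals in Mac IV. Sftpc alone averaged 5376 CPM in DC I. The part of these genes in the levels of the early genes was not tested.

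The early genes stood highest in neutrophils, basophils and mast cells and lowest in Mac III and T cells. Summed over the 10 members, neutrophils held 18340 (female) and 17146 CPM (male), that is 1.83% and 1.71% of all their reads. Basophils held 19682 and 15041 CPM, and mast cells 16872 and 18467 CPM. The monocyte-like Mac V followed with 10667 and 9531 CPM, and Mac IV with 7133 and 9801 CPM. Mac III, the cells with the alveolar macrophage gene Car4, held only 1876 and 1368 CPM, and T cells 1586 and 1844 CPM. B cells held 1743 and 2952 CPM and DC III 3117 and 2004 CPM. The values of the 3 granulocyte classes overlapped one another, and all 6 lay above those of every other subtype. Ranked gene by gene over the 15 subtypes, the median rank was 2 for basophils and 2.5 for mast cells and neutrophils, against 13 for Mac III, 13.5 for T cells and 15 for DC III.

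**Figure D1:**
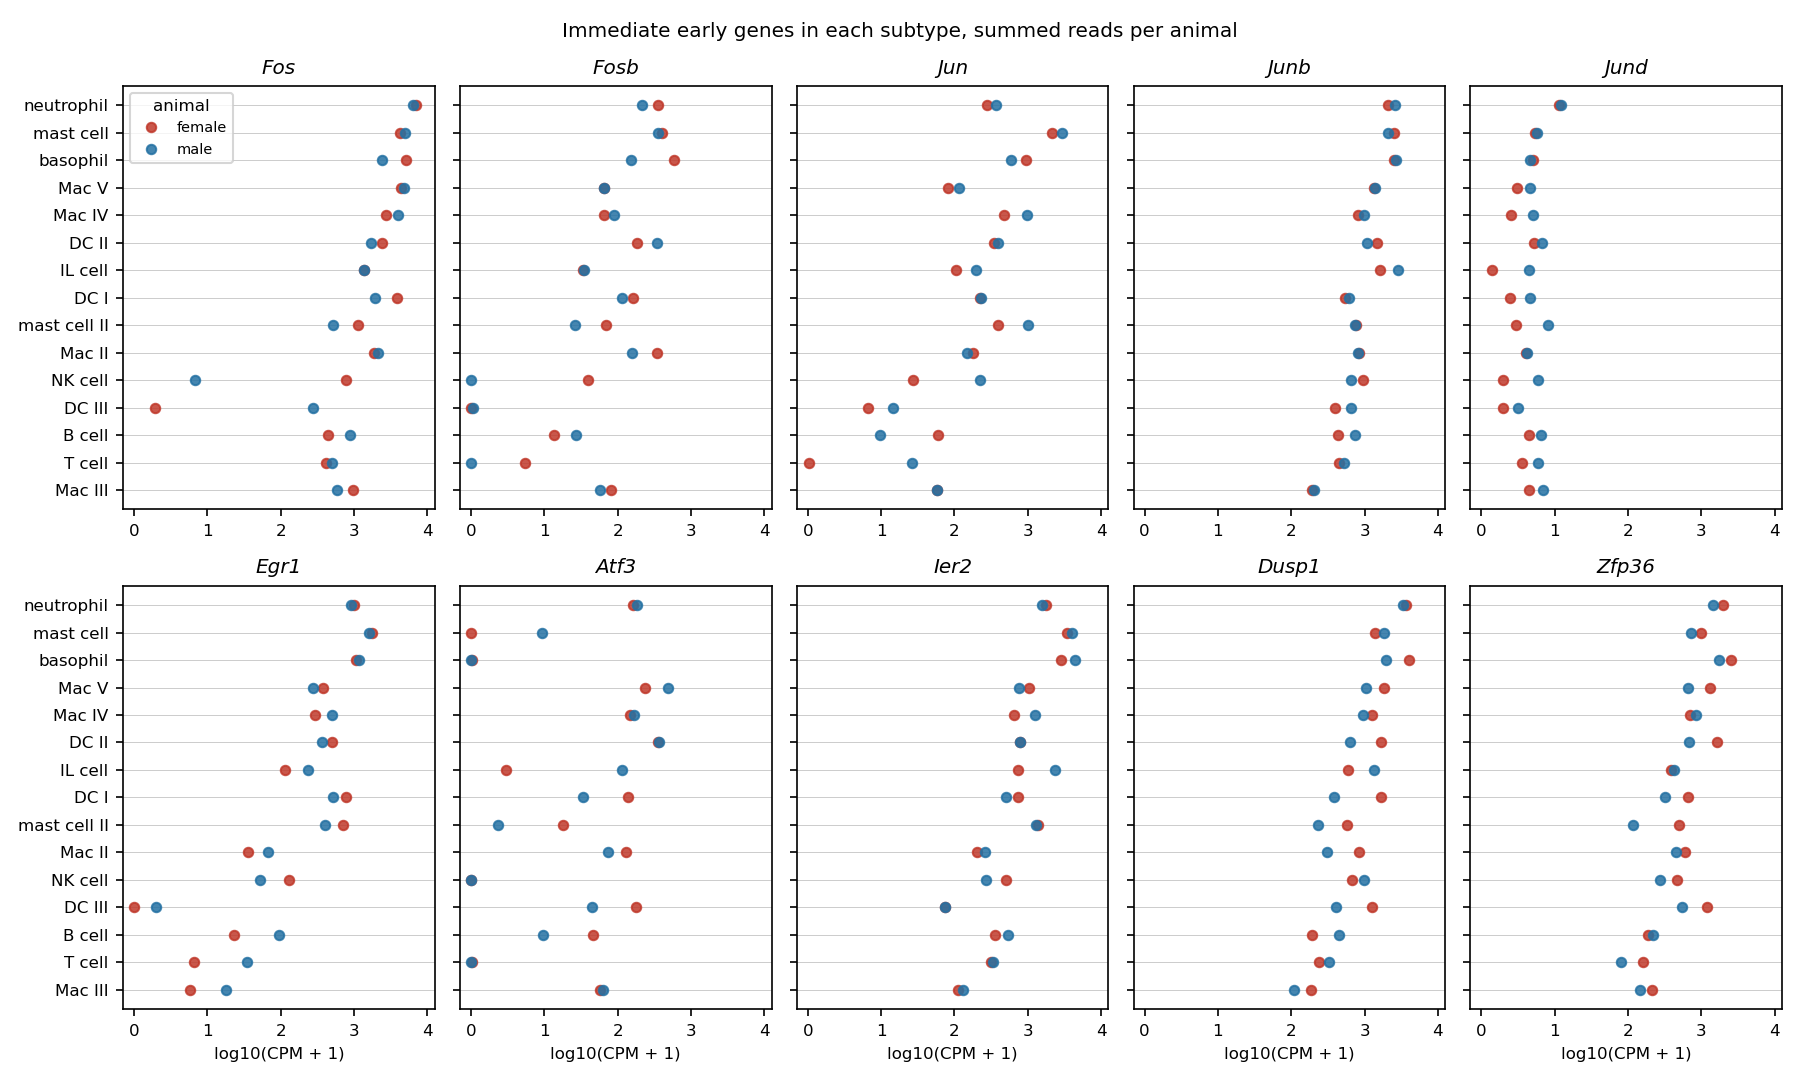
Each panel shows 1 early gene, with its level as log10(CPM + 1) on the horizontal axis and the 15 subtypes on the vertical axis. Points are the female and the male animal. Fos is high in neutrophils (6956 and 6459 CPM) and near 0 in DC III of the female, Jun peaks in mast cells (2171 and 2945 CPM), and Jund stays under 12 CPM everywhere.

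Fos, the AP-1 subunit most used as a marker of recent stimulation, was highest in neutrophils, at 6956 (female) and 6459 CPM (male) (6707 ± 352, SD, n = 2). Mast cells stood at 4261 and 4941 CPM, Mac V at 4357 and 4753 CPM, and basophils at 5072 and 2399 CPM. These 3 subtypes overlapped one another, and none overlapped neutrophils. Mac IV held 2718 and 4031 CPM, DC I 3847 and 1916 CPM, DC II 2421 and 1713 CPM, and Mac II 1868 and 2152 CPM. IL cells stood at 1356 and 1357 CPM, below all of those. At the low end were mast cell II (1141 and 508 CPM), Mac III (977 and 589), B cells (446 and 873) and T cells (417 and 506). DC III held 9 reads of Fos in the female, 0.897 CPM with an exact Poisson interval of 0.410 to 1.70 at 95%, and 270 CPM in the male, where 55.5% of the reads came from 1 of 11 cells. NK cells, with 5 and 7 cells, stood at 769 and 5.81 CPM. Of the 14 steps between neighbours in the order, 3 separated both animals of one subtype from both of the next. The same count was not made for all genes, so it has no background.

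Fosb, a Fos relative that also pairs with Jun proteins, was highest in mast cells, at 401 and 356 CPM. Basophils held 582 and 149 CPM, neutrophils 355 and 214, Mac II 343 and 154, and DC II 183 and 339. Each of these 5 subtypes overlapped the next in the order of means. Mac III, Mac IV and Mac V lay together at a lower level, with Mac IV at 64.1 and 88.9 CPM, Mac III at 80.5 and 55.9 CPM and Mac V at 64.6 and 64.1 CPM. T cells had 4.37 CPM in the female and 0 reads in the male, which allows up to 0.125 CPM. In DC III, 0 reads in the female allow up to 0.299 CPM, and the male had 1 read. These limits, like the intervals, cover counting error only, and since no molecular identifiers were used, PCR copies of a molecule count as separate reads.

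Jun, the main partner of Fos in AP-1, had another order. It was highest in mast cells, at 2171 (female) and 2945 CPM (male) (2558 ± 547, SD, n = 2), apart from every other subtype. Basophils (951 and 586 CPM), Mac IV (474 and 988 CPM) and mast cell II (389 and 1021 CPM) followed and overlapped. Neutrophils ranked 1 for Fos and 6 for Jun, with 275 and 363 CPM. Mac V held 81.8 and 113 CPM and Mac III 57.2 CPM in both animals. T cells of the female had 2 reads of Jun and those of the male 25.4 CPM, and in DC III it stood at 5.58 and 13.5 CPM.

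Junb, an AP-1 subunit that can replace Jun and restrain it, was found at more than 100 CPM in both animals in all 15 subtypes. The order began with basophils (2517 and 2647 CPM), neutrophils (2112 and 2576), mast cells (2528 and 2093) and IL cells (1648 and 2837), which overlapped. Mac V held 1327 and 1372 CPM and Mac IV 814 and 986 CPM. Mac III was the lowest of all, at 190.0 and 200.5 CPM (195 ± 7.38, SD, n = 2), below T cells at 453 and 531 CPM. Jund, the constitutive Jun protein, was low in every library. Its level was 10.5 and 11.05 CPM in neutrophils and 7.03 CPM or lower in every other library. In the GENCODE vM21 annotation, 52.6% of the exon bases of Jund are shared with Gm11175 on the opposite strand, and the part of this overlap in its low level was not tested. The same overlap covers 7.52% of Junb (Prdx2), 7.28% of Jun (Junos), 3.60% of Zfp36 (Gm44710) and 0.332% of Dusp1 (Ergic1).

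Egr1, a zinc finger factor driven by the serum response factor, lay at levels that did not overlap between the 3 granulocyte classes in the summed libraries. Mast cells held 1741 (female) and 1574 CPM (male), basophils 1059 and 1179 CPM, and neutrophils 1007 and 907 CPM. Over the single CD45 plates, however, basophils (974 to 1357 CPM) and neutrophils (866 to 1033 CPM) overlapped. Between mast cells and basophils edgeR did not call Egr1 (log2 0.36, adjusted p 0.962). DC I stood at 769 and 508 CPM, Mac IV at 293 and 503 CPM and Mac V at 379 and 273 CPM. Mac III held 4.74 CPM in the female, with exact bounds of 4.45 to 5.04, and 16.8 in the male, with bounds of 16.3 to 17.4, below all of them. Even there, 31.3% of the Egr1 reads of the female and 26.9% of those of the male came from 1 cell. In DC III, 0 reads in the female allow up to 0.299 CPM and the male had 0.958 CPM. Of the 14 neighbouring steps for Egr1, 6 separated both animals, as for Ier2, while Jund, Atf3 and Zfp36 had 1 each. This count was not made for all genes, so whether 6 is unusual is not known.

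Atf3, a CREB-family factor induced by stress and by pattern receptors, followed an order of its own. It was highest in Mac V, at 236 and 494 CPM, and in DC II, at 356 and 372 CPM, followed by neutrophils (163 and 186 CPM) and Mac IV (147 and 167 CPM). Mac III held 56.4 and 61.5 CPM. Basophils and mast cells, high in most other members, held few or no reads of it. Basophils had 1 read in 34 cells of the female and 0 in 19 cells of the male, which allows up to 0.152 CPM. Mast cells had 0 reads in the female, which allows up to 0.0485 CPM, and 8.24 CPM in the male, all from 1 of 20 cells. NK cells had 0 reads in both animals, so Mac V was at least 1555-fold above the limit of 0.211 CPM over both NK libraries. T cells had 1 read in the female and 0 in the male.

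Ier2 was highest in mast cells (3397 and 3992 CPM) and basophils (2872 and 4398 CPM), which overlapped and stood apart from neutrophils at 1772 and 1588 CPM. Mac IV held 646 and 1243 CPM and Mac V 1051 and 752 CPM. T cells held 312 and 338 CPM, Mac III 111 and 129 CPM and DC III 73.8 and 72.9 CPM, each step apart from the next. The feedback gene Dusp1 was highest in neutrophils (3690 and 3396 CPM) and basophils (4099 and 1938 CPM), and lowest in Mac III (185 and 107 CPM). Zfp36, the decay factor, was highest in basophils (2525 and 1741 CPM) and neutrophils (2001 and 1448 CPM), and lowest in T cells (157 and 77.9 CPM) and Mac III (211 and 145 CPM). DC III, at the bottom for Fos, Fosb, Jun, Egr1 and Ier2, kept both feedback genes, with 1255 and 405 CPM of Dusp1 and 1209 and 551 CPM of Zfp36.

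Between genes, levels were compared per kilobase of exon. Averaged over the 15 subtypes, Fos led with 979 CPM per kb, followed by Ier2 (732), Junb (514), Dusp1 (347) and Zfp36 (214). Jun stood at 132, Egr1 at 96.4, Atf3 at 46.9, Fosb at 21.4 and Jund at 2.37 CPM per kb. Among Jun family members Junb thus exceeded Jun per kb in this mean, and Fos exceeded Fosb. The order of the subtypes was alike in the animals for most members: Spearman's rho over 15 subtypes was 0.95 for Egr1, 0.91 for Fos, 0.90 for Jun, 0.68 for Dusp1 and 0.46 for Jund, the lowest. These are descriptions over subtypes that share each animal's plates.

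A test of any difference between the 15 subtypes called 9 of the 10 members, at a Benjamini-Hochberg adjusted p under 0.05 in edgeR's quasi-likelihood F test on the summed libraries. The adjusted p was 3.39e-07 for Ier2, 2.38e-06 for Junb, 2.29e-05 for Egr1 and 5.52e-05 for Zfp36. It was 0.000267 for Dusp1, 0.00149 for Atf3, 0.00205 for Jun, 0.00452 for Fosb and 0.0409 for Fos, while Jund had 0.895. Of all 15600 genes tested, 34.3% were called. Differences between subtypes were thus common in these data, and the members' count is read against that share. The call of Fos was lost with the animal as a block (adjusted p = 0.0642) and held in 4 of 16 fits with 1 library left out, where its adjusted p reached 0.0710. With voom, 6 members were called, against 8826 of the 15600 genes, a larger background than with edgeR. Jun (voom adjusted p 0.463), Dusp1 (0.109) and Fos were not called by it.

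Mac III and the other large macrophage classes, Mac IV and Mac V, were compared to find how far the early genes differ among macrophages of the same lung. Most members were lower in Mac III. Egr1 stood at 4.74 and 16.8 CPM in Mac III against 293 and 503 CPM in Mac IV, Ier2 at 111 and 129 CPM against 646 and 1243, and Junb at 190.0 and 200.5 CPM against 814 and 986. For each of the 3 the animals of Mac III lay below those of Mac IV. The edgeR log2 fold change was -5.16 ± 1.10 (SE) for Egr1 (adjusted p 0.0493), -2.94 ± 0.51 for Ier2 (0.0104) and -2.16 ± 0.40 for Junb (0.0196). These 3 members were called lower in Mac III and 0 higher, against 0.212% of all genes called lower and 0.0513% called higher. At an unadjusted p under 0.05 edgeR had 6 members lower and 0 higher, with 1231 of all 15600 genes in either direction. Dusp1 (log2 -2.87, adjusted p 0.139), Zfp36 (-2.09, 0.240), Jun (-3.65, 0.488) and Fos (-2.07, 0.843) were also below Mac IV in both animals but were not called by edgeR. Fosb was at a log2 of -0.13 ± 1.43, with the animals on opposite sides, and Jund at 0.82 ± 1.52. The median over the 10 members was -2.13, against 0.002 over all genes, and 9 of the 10 had a negative fold change.

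The 3 calls rested on all libraries. Without the Mac III library of the female, the Mac III library of the male or the Mac IV library of the male, 0 members were called by edgeR, and without the Mac IV library of the female only Ier2 was; the highest adjusted p was 0.845 for Egr1, 0.430 for Junb and 0.322 for Ier2. The log2 fold changes stayed negative throughout, between -6.40 and -4.53 for Egr1, -3.38 and -2.37 for Ier2, and -2.34 and -2.01 for Junb. With all cells scaled to an equal total, Egr1 missed the threshold (log2 -5.34, adjusted p 0.0759). DESeq2 called 5 members lower and 0 higher, against 348 and 138 of all genes. With voom 8 were lower and 0 higher, against 1335 and 983 of all genes.

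Against Mac V the picture was similar, with the same Mac III libraries in both comparisons. Dusp1 stood at 185 and 107 CPM in Mac III and at 1842 and 1044 CPM in Mac V, a log2 fold change of -3.37 ± 0.75 (edgeR adjusted p 0.0489). Junb differed by -2.84 ± 0.41 (0.00111), Ier2 by -2.96 ± 0.51 (0.00681) and Egr1 by -4.96 ± 1.09 (0.0452). These 4 members were called lower in Mac III and 0 higher, against 0.314% and 0.128% of all genes. Without adjustment, at p under 0.05, edgeR had 5 lower and 0 higher, with 1467 of all 15600 genes in either direction. DESeq2 called 5 members lower and 0 higher, against 319 and 567 of all genes. With voom 7 were lower and 0 higher, against 1280 and 1293 of all genes. Dusp1 missed the threshold without the filter on low counts (edgeR adjusted p 0.0520) and with the CD45 plates alone (0.0501), and Egr1 with all cells scaled to an equal total (0.0677). Zfp36 missed the threshold at a log2 of -2.54 (adjusted p 0.0810), but passed it with the animal as a block (-2.49, adjusted p 0.0146). Fos was at -2.60 (adjusted p 0.600), Atf3 at -2.68 (0.710), Jun at -0.82, Fosb at 0.03 and Jund at 0.72. The members' median was -2.64, against 0.14 over all genes. Leaving out either Mac III library left 0 members called by edgeR, leaving out the female Mac V library left 1 and the male Mac V library 2; the highest adjusted p was 0.0653 for Junb, 0.250 for Ier2, 0.594 for Egr1 and 0.634 for Dusp1.

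**Figure D2:**
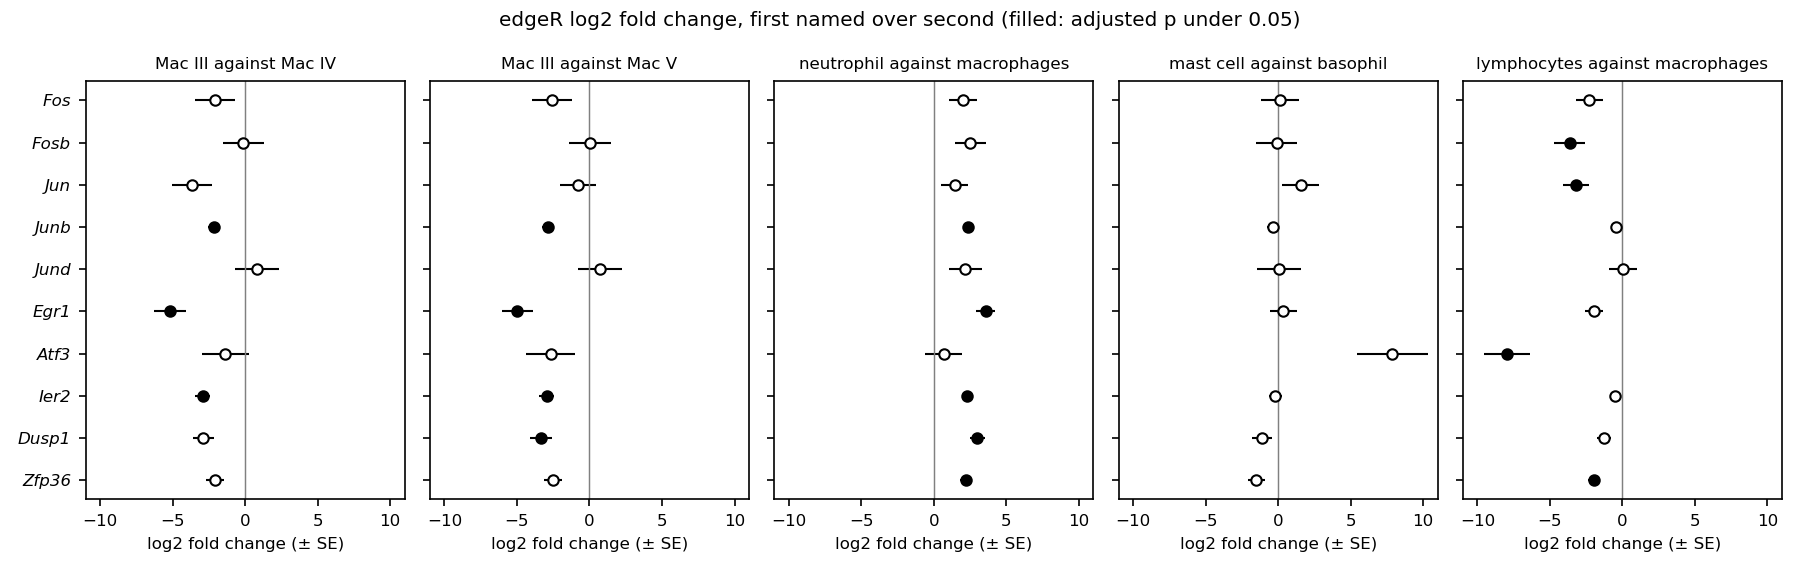
The horizontal axis gives the edgeR log2 fold change of each early gene with its standard error in 5 comparisons between subtypes (n = 2 animals each), and filled points have an adjusted p under 0.05. Against Mac IV and Mac V most members lie below 0 in Mac III, in neutrophils all 10 lie above 0, and between mast cells and basophils none is filled.

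The macrophage classes also differed in which members their cells carried. Cells were first thinned by random draws to 100000 reads apiece, with 5 shallower cells left out, and a gene was counted as detected from 5 reads. Fos was detected in 96.1% of Mac III cells of the female (174 of 181, with exact bounds of 92.2% to 98.4%) and in 85.1% in the male (177 of 208, 79.5% to 89.6%). In Mac IV the share was similar, 84.1% (72.7% to 92.1%) and 88.6% (79.5% to 94.7%). Egr1 was found in only 2.21% of Mac III cells of the female (4 of 181, 0.605% to 5.56%) and 4.33% in the male (9 of 208, 2.00% to 8.05%), but in 61.9% (48.8% to 73.9%) and 78.5% (67.8% to 86.9%) of Mac IV cells. Without thinning, Egr1 was detected in 4.40% and 9.62% of Mac III cells and in 71.4% and 87.3% of Mac IV cells. So most Mac III cells carried Fos without Egr1: 171 of 181 cells of the female and 169 of 208 cells of the male, with both genes in 3 and 8 cells. Among Mac IV cells 39 of 63 and 61 of 79 carried both. Jun was detected in 32.0% and 35.6% of Mac III cells and in 65.1% and 87.3% of Mac IV cells.

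**Figure D3:**
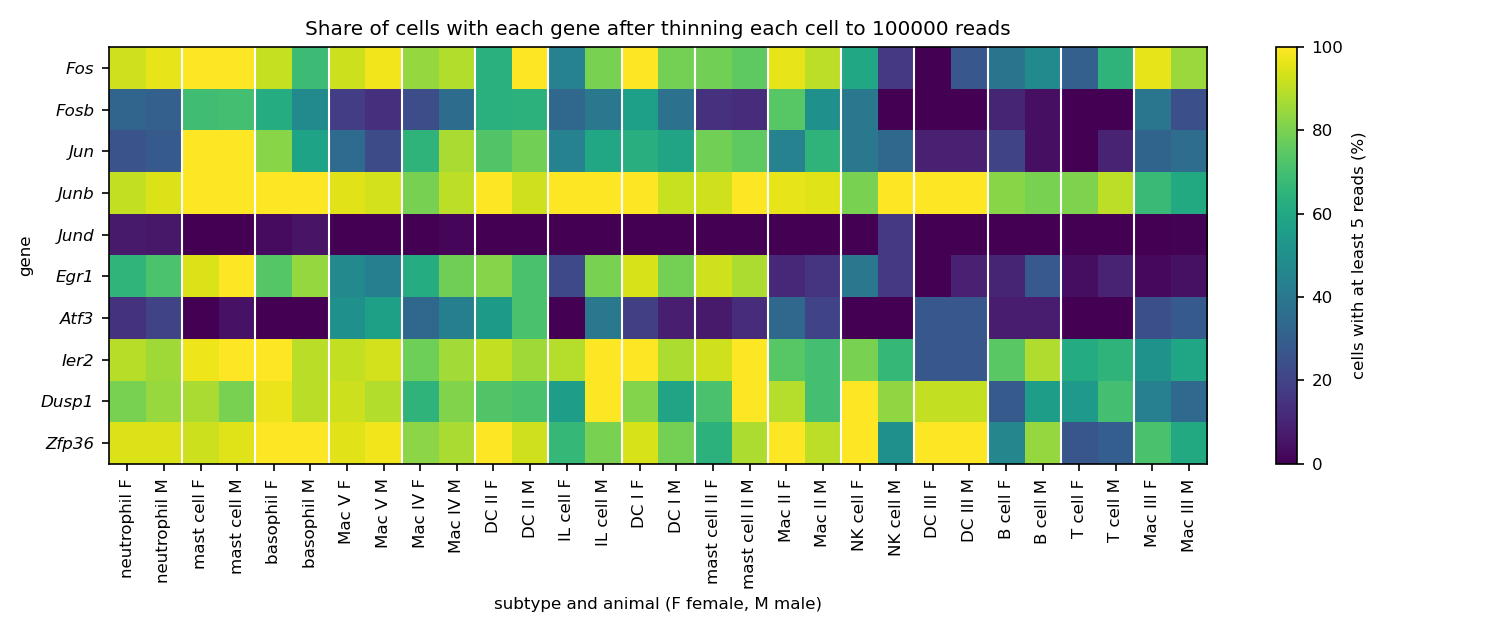
The heat map gives the percent of cells with at least 5 reads of each early gene after thinning to 100000 reads. Genes are in rows, and subtypes and animals are in columns. Mac III cells are high for Fos (96.1% and 85.1%) and low for Egr1 (2.21% and 4.33%), mast cells are high for most members except Atf3 and Jund, and DC III cells are low for Fos (0% and 27.3%).

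Neutrophils, short-lived cells with little RNA, were set against the mean of Mac III, Mac IV and Mac V on the log scale. Fos, Junb, Egr1, Ier2, Dusp1 and Zfp36 were all higher in neutrophils than in any of the 3 macrophage classes in both animals. The log2 fold change was 2.38 ± 0.29 (SE) for Junb (edgeR adjusted p 6.86e-05), 2.31 ± 0.35 for Ier2 (0.000669), 3.0 ± 0.51 for Dusp1 (0.00170), 3.56 ± 0.69 for Egr1 (0.00493) and 2.22 ± 0.44 for Zfp36 (0.00587). These 5 members were called higher and 0 lower, against 2.55% and 0.974% of all genes. At an unadjusted p under 0.05 edgeR had 6 higher and 0 lower, with 2963 of all 15600 genes in either direction. DESeq2 called 6 members higher and 0 lower, against 801 and 1191 of all genes. With voom 7 were higher and 0 lower, against 1096 and 599 of all genes. All 10 members had a positive fold change over this mean in both animals, with an edgeR median of 2.27, against -0.16 over all genes. Of all genes 46.2% had a positive edgeR fold change. A single macrophage class could still lie higher. Jun was at 474 and 988 CPM in Mac IV against 275 and 363 in neutrophils. Atf3 was at 236 and 494 CPM in Mac V against 163 and 186 in neutrophils. Fos was at 2.02 (adjusted p 0.272), Fosb at 2.53 (0.194), Jund at 2.16 (0.312), Jun at 1.45 (0.433) and Atf3 at 0.68 (0.847). With only the compared subtypes in the fit 8 members were called, and leaving out 1 library gave 4 or 5, with the call of Zfp36 lost once at an adjusted p of 0.0759. Red cell genes summed to 6102 CPM in the neutrophil library of the male and 31.6 CPM in that of the female, whereas the summed early genes were alike in the animals.

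Mast cells and basophils, the tissue-bound and the blood-borne cells that carry the high-affinity IgE receptor, were compared next. edgeR called 0 of the 10 members higher and 0 lower in mast cells, against 0.987% and 0.724% of all genes. Without adjustment, at p under 0.05, there were 2 members, Atf3 and Zfp36, and 2591 of all 15600 genes. DESeq2 called 1 member, Atf3, and 2491 of all genes. The fitted value of Atf3 depends on the prior count because basophils had 1 read. With voom 4 members (Egr1, Ier2, Dusp1 and Zfp36) and 1440 of all genes were called. Zfp36 was lower in mast cells (989 and 721 CPM against 2525 and 1741), at a log2 of -1.51 ± 0.60 (edgeR adjusted p 0.211). Jun was higher in mast cells in both animals, at a log2 of 1.55 ± 1.26 (0.631), and Dusp1 was at -1.09 ± 0.70 (0.481). Egr1 differed by 0.36 ± 0.93, Junb by -0.36 ± 0.39, Ier2 by -0.19 ± 0.47 and Fos by 0.12 ± 1.31. Standard errors of this size leave room for differences of several fold, so the cell types were not shown to be alike. Only 5 of the 10 members moved the same way in both animals. Per cell, Jun was detected in 39 of 39 and 20 of 20 mast cells and in 28 of 34 and 11 of 19 basophils.

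B cells and T cells together were lower than the macrophage mean for most members. Zfp36 stood at 184 and 220 CPM in B cells and at 157 and 77.9 CPM in T cells, against 211 and 145 CPM in Mac III, 707 and 851 in Mac IV and 1326 and 663 in Mac V. Its log2 fold change was -1.98 ± 0.41 (edgeR adjusted p 0.00680). Fosb (adjusted p 0.0491), Jun (0.0406) and Atf3 (0.00581) were also called lower in lymphocytes; all 3 had 2 reads or fewer in a T cell library, so their fitted folds depend on the prior count and are not given. These 4 were called lower and 0 higher, against 3.49% and 2.77% of all genes. At an unadjusted p under 0.05 edgeR had 7 lower and 0 higher, with 3356 of all 15600 genes in either direction. DESeq2 called 6 members lower and 0 higher, against 1802 and 949 of all genes. Fos was at a log2 of -2.29 (adjusted p 0.147), Egr1 at -1.97 (0.0720) and Dusp1 at -1.28 (0.104). Among the members with over 100 CPM in both lymphocyte classes, Junb and Ier2 were closest to the macrophage mean, at -0.45 ± 0.25 and -0.53 ± 0.31. Against Mac III alone the picture differed. Mean Junb was 579 CPM in B cells and 492 in T cells against 195 in Mac III, and mean Ier2 449 and 325 against 120. Dusp1 and Egr1 were also higher on average than in Mac III. Fos, Fosb, Jun, Jund and Atf3 were lower on average in both lymphocyte classes, and for Zfp36 Mac III lay between them. The members' median was -1.98, against -0.27 over all genes. Leaving out 1 library left 1 to 4 members called by edgeR: 1 without B cells of the male or T cells of the male, 4 without T cells of the female, and 2 without B cells of the female or any of the 6 macrophage libraries. With voom 2 members were called, against 3708 of all genes. Jun (voom adjusted p 0.334) and Zfp36 (0.138) were not among the 2. Jun was also lost in the shared sequencing run (edgeR adjusted p 0.0695) and with only the compared subtypes in the fit (0.0796).

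DC III, the dendritic cells with the migration receptor Ccr7, stood low in Fos, Fosb, Jun and Egr1 but not in the feedback genes. Dusp1 and Zfp36 were both detected in 10 of 11 thinned cells in each animal. Fos was detected in 0 of 11 cells of the female, which allows up to 28.5% by the exact interval, and in 3 of 11 of the male. Egr1 was found in 0 and 1 cells. In DC I, by contrast, Fos and Egr1 were found together in 15 of 16 and 18 of 24 cells, and in DC II in 6 of 11 and 10 of 14. No test was made between dendritic classes for these genes.

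The members were then followed within a subtype, cell by cell. The number of members detected per thinned cell had a median of 8 in mast cells and 7 in Mac IV in both animals, 4 in Mac III and 2 and 3.5 in T cells. Of the mast cells, 94.9% and 100% carried at least 6 members, against 20.4% and 17.8% of Mac III cells. Members varied together most in Mac IV, where the median Spearman correlation over the 45 pairs of members was 0.46 in 63 cells of the female and 0.32 in 79 cells of the male. In Mac III it was 0.06 in 182 cells and 0.09 in 208. It lay at 0.17 and 0.16 in neutrophils, 0.20 and 0.11 in Mac V, and 0.24 and 0.22 in B cells. Fos with Junb (median 0.44 over 12 libraries of cells, lowest 0.04, highest 0.74) and Egr1 with Ier2 (0.43, 0.14 to 0.68) were the pairs most alike. These correlations are descriptions over cells that share a library, a plate and a range of depths.

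**Figure D4:**
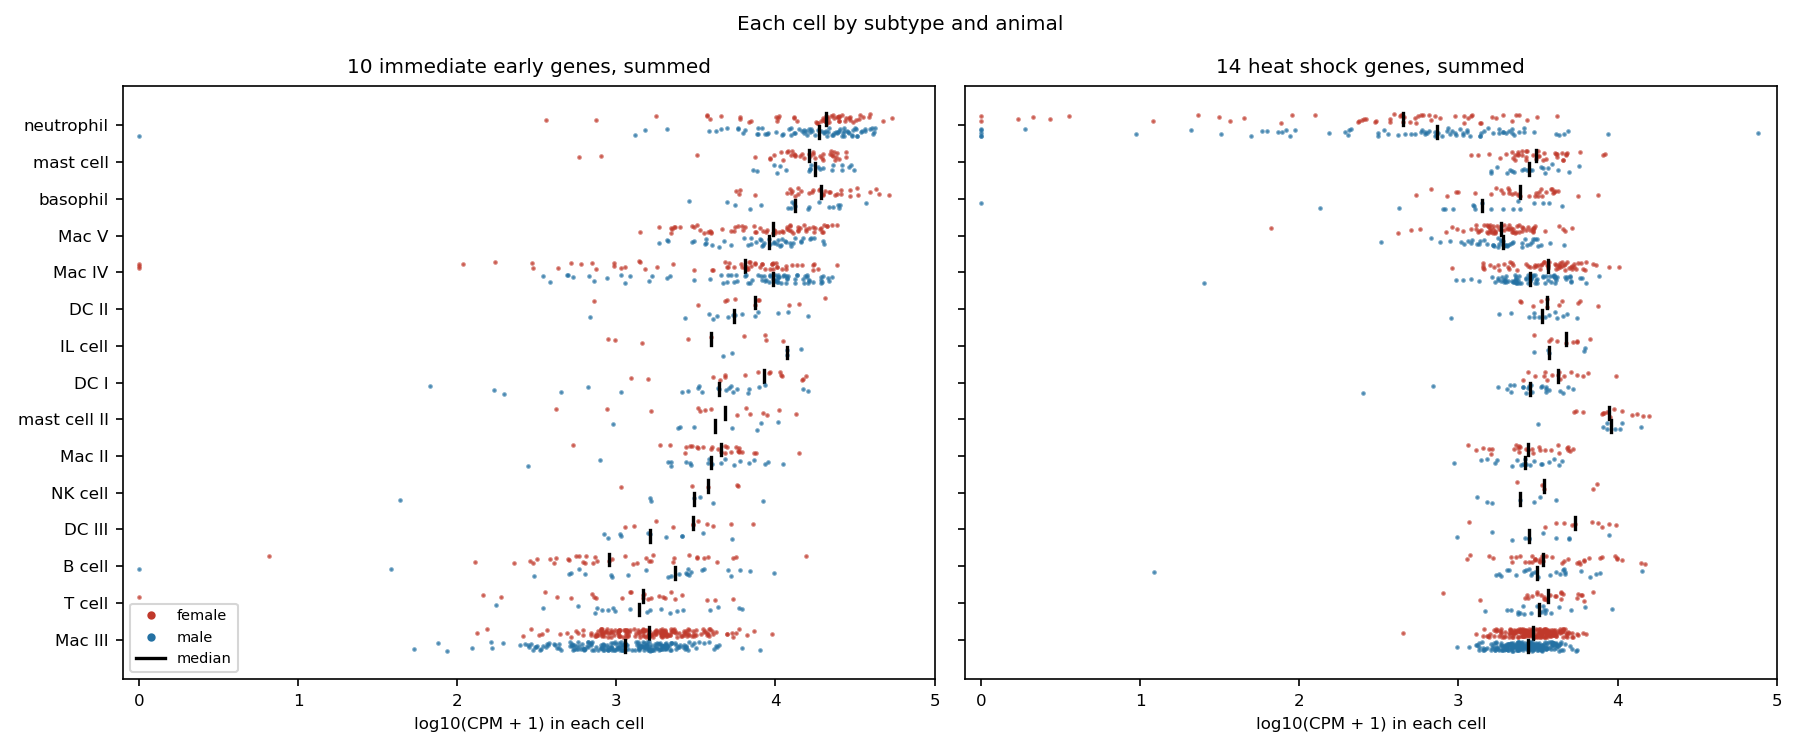
Each point is 1 cell, with the subtypes along the vertical axis and log10(CPM + 1) along the horizontal axis. The left panel sums the 10 early genes and the right panel 14 heat shock genes, and bars are medians per animal. For the early genes the median is 20892 and 18845 CPM in neutrophils and 1599 and 1129 CPM in Mac III, while for the heat shock genes neutrophils are low (450.1 and 732 CPM) and mast cell II is high (8800 and 9111 CPM).

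Within most subtypes the summed early genes also spread widely between cells. In Mac III the sum ran from 132 to 9470 CPM in the female around a median of 1599, and from 52.4 to 8038 CPM in the male around 1129. In Mac IV it ran from 0 to 24371 CPM around 6434 and from 346 to 22581 CPM around 9609. The Mac IV cells of the female on the second plate differed by position, with a median of 6440 CPM in 20 cells of columns 1 to 12 and 1187 CPM in 12 cells of columns 13 to 24. On that plate rows A to H had a median of 1451 CPM and rows I to P one of 6378 CPM. On the other 3 plates the columns differed by less in Mac IV, with ratios of 1.63, 0.895 and 0.892. In Mac V the ratio of columns was 0.508 on the second plate of the male, and that of rows 0.496 on the first plate of the female. The part of plate position in the sums was not tested further.

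Dissociation and sorting were not varied in these samples, so a handling effect cannot be told apart from the state of the cells in the lung. Values that bear on handling are given beside the early genes. Heat shock genes, chaperones that rise with thermal and protein-folding stress, did not follow the order of the early genes. Their 14 genes summed to 730.0 and 1923 CPM in neutrophils and to 3089 and 2722 CPM in Mac III, the reverse of the early genes. Hsp90ab1 alone made up 1826 and 1704 CPM of the sum in Mac III, and 159 and 424 CPM in neutrophils. Hspa1a had 0 and 2 reads in Mac III, and Hspa1b 1 and 16 reads. How far the sum reflects handling was not tested. Mast cell II had the highest sum, 9184 and 9331 CPM, with early genes at only 5562 and 4340 CPM. Over cells of 1 subtype and animal, the summed early genes and the summed heat shock genes had Spearman correlations from -0.22 to 0.26 in 12 libraries. Other traits of the cells ran wider. With the labelled number of genes per cell the range was -0.41 (neutrophils, male) to 0.28 (Mac V, female). With well row it was -0.52 (20 mast cells, male) to 0.19 (Mac V, male). With well column it was -0.37 (Mac IV, female) to 0.34 (B cells, female). The part of these traits in the sums was not tested. Of the heat shock genes 0 of 14 were called by edgeR for Mac III against Mac IV or Mac V. Of all 15600 genes only 41 and 69 were called there, so 0 of 14 does not set these genes apart. Somewhere among the 15 subtypes 9 of 14 differed, against 34.3% of all genes. In neutrophils 2 were called higher and 1 lower, against 2.55% and 0.974% of all genes. For Mac III against Mac IV, 0 were higher and 2 lower at an unadjusted p under 0.05 in edgeR, DESeq2 called 1 and voom 5. Over all genes these counts were 1231, 486 and 2318. Against Mac V, 2 were higher and 1 lower, DESeq2 called 1 and voom 5, with 1467, 886 and 2573 over all genes. The 2 higher genes in neutrophils were Hspa1a and Hspa1b, and 99.8% and 99.99% of their neutrophil reads in the male came from 1 cell.

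Each animal had a pair of CD45 plates, which were compared with each other. In Mac III the median over the members of the log2 ratio of plate 1 to plate 2 was 0.001 in the female and -0.10 in the male, with members between -0.99 and 0.67. Plates differed more in smaller classes: the median was -1.86 in B cells of the female, with members down to -4.86, and 0.90 in those of the male. In the female it was -1.003 in DC II, -0.96 in Mac II and -0.55 in basophils, and those plates were also from different sequencing runs. Among the larger classes, the levels were compared over the 4 CD45 plates. Fos ran from 582 to 1038 CPM over the 4 plates of Mac III, from 2646 to 4171 in Mac IV, from 4203 to 4912 in Mac V and from 6040 to 7614 in neutrophils. Egr1 ran from 3.31 to 19.6 CPM in Mac III and from 272 to 512 CPM in Mac IV. In 7 members (Fos, Jun, Junb, Egr1, Ier2, Dusp1 and Zfp36) all 4 plates of Mac III lay below all 4 of Mac IV, against 11.1% of all genes. For Mac V the number was also 7, with Atf3 in place of Jun, against 8.47%. Neutrophils lay above Mac III on all 4 plates in 9 members, all but Jund, against 7.0%. Mast cells lay above basophils in 2 members (Jun and Egr1), against 7.97%, and below them in 1 (Zfp36), against 3.99%. Plates of an animal are not separate animals, so these counts carry no p-value.

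**Figure D5:**
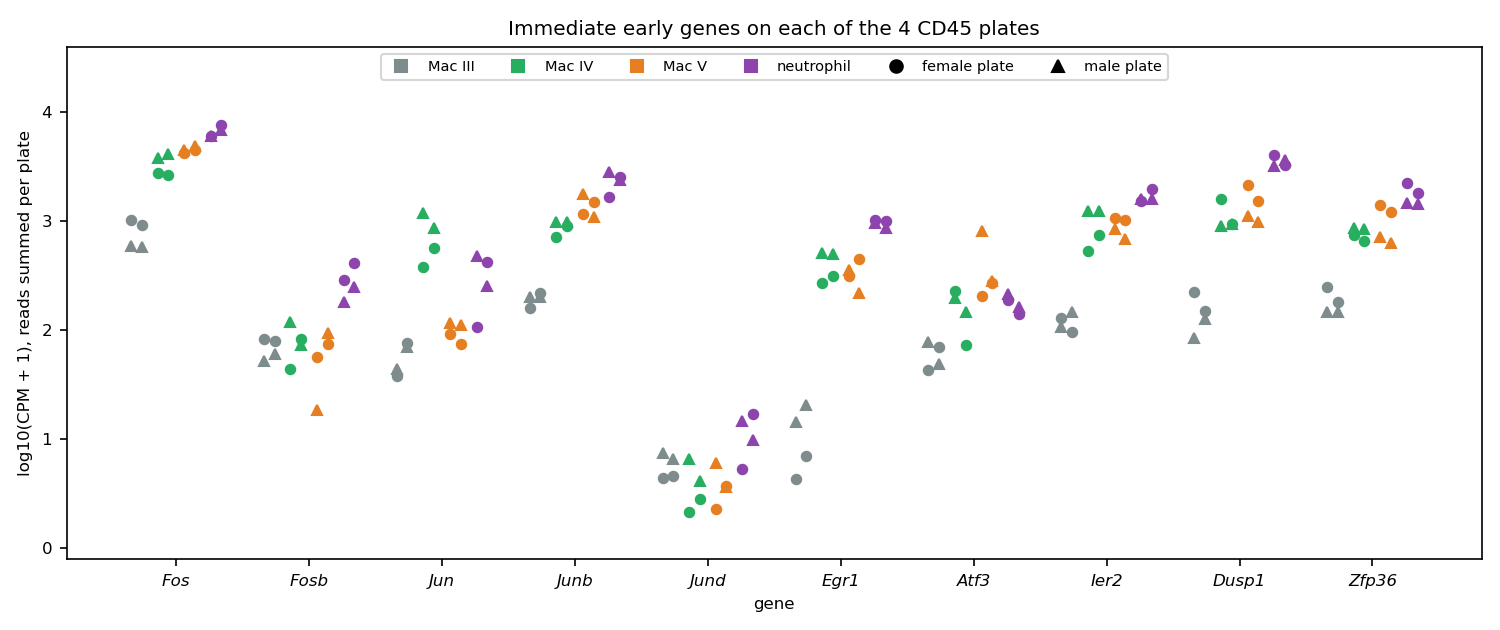
Each point is 1 CD45 plate of 1 animal, with the level of an early gene in CPM (log axis) on the vertical axis for Mac III, Mac IV, Mac V and neutrophils. For Fos, Junb, Egr1, Ier2, Dusp1 and Zfp36 the 4 plates of Mac III lie below those of the other subtypes, and for Fosb and Jund the plates of the macrophage classes overlap.

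The first plate of the female was from sequencing run DC28 and the other 3 CD45 plates were from DC35. With cells of the shared run alone, Fos was called lower in Mac III than in Mac IV (edgeR log2 -2.12, adjusted p 0.0251) and than in Mac V (-2.65, 0.00423), and higher in neutrophils than in the macrophages (2.12, 0.000428). Egr1 then missed the threshold against Mac IV (log2 -5.12, adjusted p 0.0727) and against Mac V (-5.00, 0.0633).

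Related genes were described from lists of the early response, AP-1 and its pathway. The counts over all genes given with each comparison above are the background for the counts in these lists. Of 34 other early response genes tested, edgeR called 0 for Mac III against Mac IV (median log2 -0.61) and 2 lower against Mac V (median -1.37), with all genes at 0.002 and 0.14. Against Mac IV, 2 were higher and 8 lower at an unadjusted p under 0.05 in edgeR, DESeq2 called 1 higher and 6 lower, and voom 5 and 8. Against Mac V, 1 was higher and 9 lower at an unadjusted p, DESeq2 called 0 and 8, and voom 3 and 16. The 2 genes that edgeR called lower than in Mac V were the nuclear receptor Nr4a1 (31.0 and 52.8 CPM in Mac III, 2051 and 1208 in Mac V, log2 -5.34, adjusted p 0.0305) and the growth inhibitor Btg2 (199 and 193 CPM against 1672 and 1596, log2 -3.12, adjusted p 0.0275). In neutrophils 8 were called higher and 1 lower (median 1.91, all genes -0.16). Gadd45a, a stress gene of growth arrest, reached 491 and 318 CPM there (log2 5.41, edgeR adjusted p 0.00293), and Nr4a2 was the 1 lower gene. Between mast cells and basophils 1 was called higher and 4 lower (median -0.72, all genes 0.15), and in lymphocytes 2 were called lower than in macrophages (median -0.90, all genes -0.27).

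Among 13 other AP-1 family genes, edgeR called only Maf, a large Maf factor of resident macrophages, between Mac III and Mac IV, and also against Mac V (log2 -6.47, adjusted p 0.0489). It stood at 0.325 and 1.21 CPM in Mac III and at 719.7 and 729 CPM in Mac IV (log2 -9.82, adjusted p 0.00863). In lymphocytes 4 of the 13 were called lower, among them Jdp2, and in neutrophils and between mast cells and basophils 0 were called; for neutrophils the nearest was Fosl2 (log2 2.31, adjusted p 0.0524). Without adjustment, at p under 0.05, edgeR had 2 higher in neutrophils, and 2 higher and 2 lower in mast cells. DESeq2 called 2 and 3 of the 13 in these comparisons, and voom 1 and 2. Of 18 upstream kinases and factors, edgeR called 0 in any of the 5 comparisons. At an unadjusted p under 0.05 it had 1 against Mac IV, 0 against Mac V, 3 in neutrophils, 2 in mast cells and 5 in lymphocytes; DESeq2 called 0, 0, 2, 2 and 4 in that order, and voom 2, 4, 2, 2 and 2. Among 10 genes of AU-rich decay, the Zfp36 relative Zfp36l1 was called lower in Mac III than in Mac IV (14.03 and 10.5 CPM against 203 and 227, log2 -4.09, adjusted p 0.00316), higher in neutrophils (log2 1.58, adjusted p 0.0342) and higher in lymphocytes (log2 1.66, adjusted p 0.00704). Of 10 housekeeping genes edgeR called 0 between Mac III and Mac IV, with 1 at an unadjusted p under 0.05, 1 called by DESeq2 and 2 by voom. Those called elsewhere included B2m against Mac V (log2 -1.60), Eef1a1 in neutrophils (-2.19), Actb in mast cells (-1.99) and Eef1a1 in lymphocytes (0.91).

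The genes most like the members were sought in 2 ways. Over the 30 summed libraries, with a member score made of the mean of the standardised log2(CPM + 1) values, Lpcat2 was most alike (Pearson's r = 0.85), followed by Nfkbid (0.79), Nr4a1 (0.76), Kdm6b (0.76) and Nfkbiz (0.75) among 6958 genes. Of the members themselves, Egr1 followed the mean of the other 9 most closely (0.85) and Atf3 least (0.10), with Jund at 0.26. Over Mac III cells, Btg2 was first among 6590 genes, with Spearman's rho of 0.27 in the female and 0.28 in the male, ahead of Neat1 (0.17 and 0.24), Pim1, Eef2 and Zswim4. Libraries that share an animal and cells that share a plate are not independent points, so these values are descriptions.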

How the data were processed

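Single cells had been sorted into plates and sequenced after tagging with the Tn5 transposase, per the labels' protocols. The authors deposited raw read counts, 1 whole number for each gene in each cell, and these were used unchanged. STAR 2.5.2b, HTSeq 0.10 and the build GRCh38 are named in the submitters' processing notes; GRCh38 is a human build, so no coordinate was taken from the files. Whether strand was counted is not given in the sources used here. The members and the gene lists were chosen with earlier results of these data known.

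Counts were summed per animal and subtype for subtypes in which both animals had 5 cells or more. The 30 libraries held 6024429 reads (NK cell, male) to 235566546 reads (Mac III, male). With edgeR 4.0.16 in R 4.3.3, TMM factors, filterByExpr and 1 coefficient per subtype, 15600 genes went into the quasi-likelihood F test. The dispersion was a trend over all genes without a value per gene, and each gene's remaining spread was pooled over all subtypes in the fit. A gene was called when its p, adjusted by Benjamini-Hochberg over all of them, was under 0.05. edgeR's common biological coefficient of variation came to 1.15, so differences of many fold could be missed. CPM used summed totals without TMM. The standard errors (SE) of edgeR are approximate, each the absolute log2 fold change divided by the square root of its F statistic. Detection used cells thinned at random to 100000 reads, and at least 5 reads. Intervals are exact at 95% (Clopper-Pearson for shares, Poisson for counts) and cover counting error only, and 0 reads are given the limit of 3. DESeq2 1.42.0, limma 3.58.1 (voom), other filters and weights, the animal as a block and fits without 1 library were alternatives. The replicate labels pair libraries of the same animal; over 105 pairs of subtypes the correlation of their deviations ran from -0.04 to 0.13, with a median of 0.05. The test was checked on simulated data: for Mac III against Mac IV it missed most of the changed genes at the spread estimated here, including most of those with the larger of the simulated folds, and recovered all of them at a low spread. From each list the text names at most the 2 called genes with the largest fold change per comparison or, with none called, the 2 with the highest level; a few genes that this rule names are not reported here. Exon lengths and overlaps were taken from GENCODE vM21, and promoters from RefSeq (GRCm38.p6). No doublet caller was run.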

Additional observations from a re-analysis of the deposited data

Results flagged for a closer look

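In 7 member comparisons the animals moved in opposite directions, judged by the log2 ratio of CPM + 1 in each animal. With 1 animal per sex the difference between the animals was not tested, and sex and animal cannot be told apart. For Mac III against Mac IV, Fosb was at 0.32 in the female and -0.66 in the male, a difference of 0.985. Against Mac V it was at 0.31 and -0.19, a difference of 0.507. The other 5 were between mast cells and basophils. Atf3 was at -0.03 and 3.21 (difference 3.24), and all 227 reads of the male mast cells came from 1 cell. Fosb was at -0.54 and 1.25 (difference 1.78), and Fos at -0.25 and 1.04 (difference 1.29). Ier2 was at 0.24 and -0.14 (difference 0.382), and Junb at 0.01 and -0.34 (difference 0.345). edgeR called none of these 7.

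The Mac I cell, left out of the comparisons because it is alone under its label, held 9159.6 CPM of the 10 members together, with Fos at 4019 CPM, Junb at 1274 CPM and Egr1 at 811 CPM. Jund had 0 reads in it, which allows up to 1.23 CPM. A lone cell has no replicate check.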

How the results depend on the processing

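Each group had 2 animals, and most calls among macrophages were lost without 1 library. Of 749 member values under an alternative, 622 kept their direction and side of the threshold, 55 lost a call, 44 gained one and 28 reversed.

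The members called between Mac III and Mac IV numbered 3, against 5 with DESeq2, 8 with voom, 8 with only the compared subtypes in the fit, and 0 to 1 without 1 library. Against Mac V the 4 became 7 with voom, 7 with only the compared subtypes, and 0 to 2 without 1 library. The 5 of neutrophils became 8 with only the compared subtypes. The 0 between mast cells and basophils became 1 with cells scaled to equal totals, 1 with DESeq2, 4 with voom, 1 with subtypes of at least 10 cells in each animal (chosen after seeing the data), and 0 to 1 without 1 library. The 4 of lymphocytes became 2 with voom and 1 to 4 without 1 library. Fos was detected in 87.0% of cells from 1 read, in 76.6% from 20 reads and in 86.8% without thinning, against 83.9%. The plate median in Mac III moved from -0.05 to -0.15 with the mean and -0.18 with the median of per-cell CPM.

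With the animal as a replicate block, 8 members differed between any subtypes, and 3, 5, 5, 0 and 4 were called in the 5 comparisons in the order of the report. The block changed the calls of Fos for any difference and of Zfp36 against Mac V, and no other member's call.

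Reversed fold changes were small or rested on 1 library, and edgeR called none of them. Fosb between Mac III and Mac IV was at 0.0081 with scaled cells and at -0.41 to 0.14 without 1 library. Against Mac V it was at -0.030 with the block, -0.059 in the shared run, -0.017 with voom, -0.00045 with only the compared subtypes, and -0.19 to 0.29 without 1 library. Between mast cells and basophils, Fos was at -0.24 with scaled cells, -0.20 in the shared run, -0.38 with voom, and -0.20 to 0.72 without 1 library. There Fosb was at 0.088 with the block, 0.028 with DESeq2 and -0.68 to 1.13 without 1 library, and Jund at -0.062 with scaled cells and -0.065 in the shared run. Ier2 was at 0.10 with voom (adjusted p 0.0346) and -0.47 to 0.31 without 1 library. The fitted value of Atf3 ran from -2.90 to 10.82 without 1 library. Jund in lymphocytes was at -0.053 without a filter, -0.072 with scaled cells and -0.26 to 0.31 without 1 library.

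Over all genes, 41 were called between Mac III and Mac IV, against 486 with DESeq2, 2318 with voom, 1711 with only the compared subtypes, 81 with at least 10 cells and 1 to 17 without 1 library. Against Mac V the 69 became 886, 2573, 1241, 130 and 16 to 23. For neutrophils the 550 called became 1992, 1695, 2303, 880 and 189 to 576. The 267 between mast cells and basophils became 2491 with DESeq2, 1440 with voom, 553 with at least 10 cells and 98 to 173 without 1 library. The 976 of lymphocytes became 2751, 3708 and 3043 with DESeq2, voom and only the compared subtypes, and 308 to 456 without 1 library. The 5352 of any difference became 8826 with voom. Called genes split 20 higher to 49 lower against Mac V, 567 to 319 with DESeq2 and 1293 to 1280 with voom. The split was 398 to 152 in neutrophils (801 to 1191 with DESeq2), 154 to 113 in mast cells (1766 to 725) and 8 to 33 against Mac IV (983 to 1335 with voom). Against Mac IV it was 13 to 28 with scaled cells, 18 to 40 in the shared run, 138 to 348 with DESeq2 and 752 to 959 with only the compared subtypes, which gave 536 to 705 against Mac V and 126 to 158 in mast cells. The log2 median of all genes shifted by -0.19 (lymphocytes, no filter) to 0.16 (neutrophils, DESeq2) with all libraries in, and by -0.63 to 0.67 without 1 library. The causes were not tested. For any difference, leaving out the other 14 libraries was not run.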

Other observations

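DC III cells, which ranked 15 of 15 subtypes for Fos, Fosb, Jun and Egr1, held high levels of other early response genes, chosen here after their values were seen. Btg1, an antiproliferative gene, was measured at 3443 CPM in the female animal and 2737 CPM in the male. Klf6, a Kruppel-like factor, stood at 3131 and 2104 CPM, and Gadd45b, a stress gene of the Gadd45 family, at 1684 and 2919 CPM. DC III ranked 1 of the 15 subtypes in mean level for each of the 3. The highest library outside DC III reached 2025 CPM of Btg1 (neutrophils), 2377 CPM of Klf6 (basophils, above DC III of the male) and 456 CPM of Gadd45b (DC II). The 34 other early response genes in the table summed to 11488 and 10144 CPM in DC III, against 13737 and 13529 CPM in basophils and 13600.5 and 11567 CPM in neutrophils. DC III held 11 cells in each animal, and the difference was not tested.

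Btg2, the gene most like the members over Mac III cells, was nearly absent from mast cells, at 0.825 and 3.63 CPM, against 1106 and 456 CPM in basophils (edgeR log2 -8.63, Benjamini-Hochberg adjusted p 5.29e-06). Of the Btg2 reads of basophils, 40.2% in the female and 51.7% in the male came from 1 cell. Dusp5, a phosphatase for ERK kinases, stood at 22.9 and 2.10 CPM in mast cells and at 1037 and 687 CPM in basophils (log2 -6.30, adjusted p 0.00221).

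In neutrophils against macrophages the early response genes called higher included Nfkbiz, a regulator of NF-kB target genes (1111 and 629 CPM, edgeR log2 4.09, adjusted p 0.000874), and Klf2, a Kruppel-like factor (934 and 744 CPM, log2 2.98, adjusted p 0.0136).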
